A study of Macaca fascicularis with 80 samples.

Results

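Whole blood drawn on day 21, 14 days after the last of 3 rising doses of IL-15/IL-15Ra, was compared with blood of the same cynomolgus macaques (Macaca fascicularis) on day 0. Libraries were taken by the day and animal number in their names, which gave 8 libraries of day 21 and 8 of day 0, or 16 of the 80 libraries of the series, each from 1 of 4 female and 4 male animals. By day 21 every animal had been dosed with 5, 10 and 15 µg/kg, on days 0, 3 and 7 of the study. The day 0 libraries carry a dose of 0 µg/kg and are labelled as control. Libraries of days 3 and 7 carry the dose given before that day, and the labels do not say whether blood was drawn before or after the dose of the day. The sources used here state neither the age nor the origin of the animals, and no undosed animals bled on the same days were analysed. Doses, elapsed time and repeated blood draws therefore cannot be told apart.

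Interleukin 15 is a cytokine of the common gamma chain family that keeps natural killer cells and memory CD8 T cells alive and makes them divide. It is normally carried on its receptor alpha chain by one cell and presented to the beta and gamma chains on another, and a preformed complex of cytokine and alpha chain acts as a strong agonist of that receptor. Whole blood RNA comes from granulocytes, lymphocytes, monocytes, platelets and young red cells together. In such bulk samples, fewer cells of a type and less RNA per cell cannot be told apart.

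Neither deposited table pairs its gene identifiers with gene names, and 0 identifiers of either table were found in the gene table used for names. Blood cell markers could therefore not be checked against the labels, lists of marker genes could not be counted, and no gene product is named. The 16 libraries held between 17.9 M and 30.3 M counts (M, mega), with medians of 21.7 M on day 21 and 21.9 M on day 0, and all 16 carry 1 sequencing run and library tag. Levels are given as log2 CPM (a gene's counts per 1 M counts of its library, on a log2 scale, with library sizes adjusted by trimmed means of M-values, TMM). A gene is called changed at a Benjamini-Hochberg adjusted p under 0.05 in edgeR's quasi-likelihood test with animal as a block.

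At 14 days after the last dose, whole blood RNA still differed from that of day 0. Of 16054 genes tested, 2011 were higher and 2434 lower on day 21 than on day 0, which is 12.5% and 15.2% of the genes and 27.7% together. Scaling by library totals instead of TMM turned the split to 2723 higher and 1839 lower, and upper-quartile factors gave 2400 and 2207, so which direction was the commoner depended on the scaling.

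Most of these changes were small. The median called gene was 1.39-fold higher or 1.44-fold lower. More than 2-fold changes numbered 215 up and 424 down, and more than 4-fold changes numbered 23 up and 105 down. The call itself favours genes whose animals agree in direction, so the counts of agreement describe the lists. Of the 2011 higher genes, 993 were higher in 8 of 8 animals and 876 in 7 of 8. Of the 2434 lower genes, 1203 were lower in 8 of 8 animals and 1089 in 7 of 8. Among the 11609 genes not called, 174 moved one way in all 8 animals, or 1.5%. Complete separation of the days was rare. All 8 libraries of day 21 lay above all 8 of day 0 for 87 genes (0.542% of those tested), and below them for 167 genes (1.04%). All genes so separated were called.

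The changed genes carried a large part of the RNA measured. Genes called higher took 22.3 ± 1.96% (SD, n = 8) of all counts on day 21, against 14 ± 2.84% on day 0, and the share was larger on day 21 in 8 of 8 animals. Their shares ran from 20% to 25.3% on day 21 and from 10.9% to 19.4% on day 0, without overlap. Genes called lower took 27.1 ± 2.86% on day 21, against 37.4 ± 5.07% on day 0, smaller in 8 of 8 animals. These shares describe the lists, which were chosen on the same libraries, and involve no scaling factor.

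Abundance was then measured on the 64 libraries of the other 8 days, which did not choose the genes. Lower calls were concentrated among abundant genes. Genes were ordered into 5 classes of nearly equal size. In the most abundant class, 36.6% were called lower and 13.4% higher, and in the class next to it 18.7% and 18.2%. In the middle class the balance was the other way, with 10.2% lower and 18.1% higher. In the least abundant class 4.08% were called lower and 1.81% higher. These classes were counted with TMM only and not under the other scalings, on which the overall split depended. Standard errors of the log2 fold changes had a median of 0.55 in the lowest class and of 0.09 in the highest, so that small changes could be called mainly in the upper classes. Among the 100 most abundant genes of those days, 39 were called lower and 25 higher, with log2 fold changes from -1.46 to 1.84. Among the 10 most abundant, 2 were called lower and 3 higher.

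The 10 most abundant genes of each library took a larger share of the counts on day 21. The share was 8.06 ± 1.36% (SD, n = 8) on day 21, against 6.87 ± 0.614% on day 0, and it was larger on day 21 in 8 of 8 animals (exact two-sided sign-flip permutation test, p = 0.00781, the smallest that 8 animals can give; adjusted p = 0.0391 over 5 measures). With any 1 animal other than male 39100 left out, the exact permutation adjusted p was 0.0781, where 7 animals cannot give an unadjusted p below 0.0156. For the 100 most abundant genes the share was 22.4 ± 1.67% on day 21, against 21.1 ± 1.12% on day 0, larger in 7 of 8 animals and past the threshold only before adjustment (exact permutation p = 0.0234, adjusted p = 0.0586). Library totals averaged 21.7 ± 2.33 M on day 21, against 23.4 ± 3.06 M on day 0 (exact permutation adjusted p = 0.443). The effective number of genes, an evenness measure, was 3452 ± 358 on day 21, against 3483 ± 273 on day 0, and genes detected at a common depth of 15 M counts numbered 17920 ± 586 against 18038 ± 332 (exact permutation adjusted p = 0.695 for both).

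Examples are given by 4 identifiers, 2 that were higher and 2 that were lower. They have the largest and smallest log2 fold changes among called genes with a mean of at least 2 log2 CPM over the 16 libraries and 1 direction in 8 of 8 animals. That pool held 825 higher and 1029 lower genes. Size, call and direction of these 4 restate the choice, while their levels on other days do not. Reads shared with near-identical genes could not be traced for them.

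ENSMFAG00000039008 had its lowest level at 0.99, its median at 4.31 and its highest at 5.94 log2 CPM on day 21, against a lowest of -0.22, a median of 1.25 and a highest of 4.03 log2 CPM on day 0. The groups overlapped, because animals differed widely on both days, and male 39104 moved the least, at 0.99 log2 CPM on day 21 and 0.84 on day 0. The log2 fold change was 2.37 (SE 0.37, edgeR adjusted p = 0.000527). ENSMFAG00000036363 ran from 4.00 to 8.56 log2 CPM on day 21 with a median of 6.86, against 2.43 to 7.06 with a median of 4.09 on day 0. Its log2 fold change was 1.95 (SE 0.26, edgeR adjusted p = 0.000192). Female 39097 had the highest level of this gene on both days.

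ENSMFAG00000052509 ran from -0.98 to 2.78 log2 CPM on day 21 with a median of 1.12, against 0.57 to 5.24 with a median of 3.33 on day 0. It was lower on day 21 by a log2 fold change of -2.39 (SE 0.42, edgeR adjusted p = 0.000963), although male 39102 started below the day 21 median of the group. ENSMFAG00000020302 ran from -0.48 to 4.92 log2 CPM on day 21 with a median of 2.91, against 1.76 to 6.74 with a median of 5.02 on day 0. Its log2 fold change was -2.31 (SE 0.29, edgeR adjusted p = 0.00016). Without the animal block, which ignores that animals start at different levels, the adjusted p was 0.0939 for ENSMFAG00000036363 and 0.0795 for ENSMFAG00000020302. In 1 fit over all 80 libraries it was 0.0923 for ENSMFAG00000052509.

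**Figure D1:**
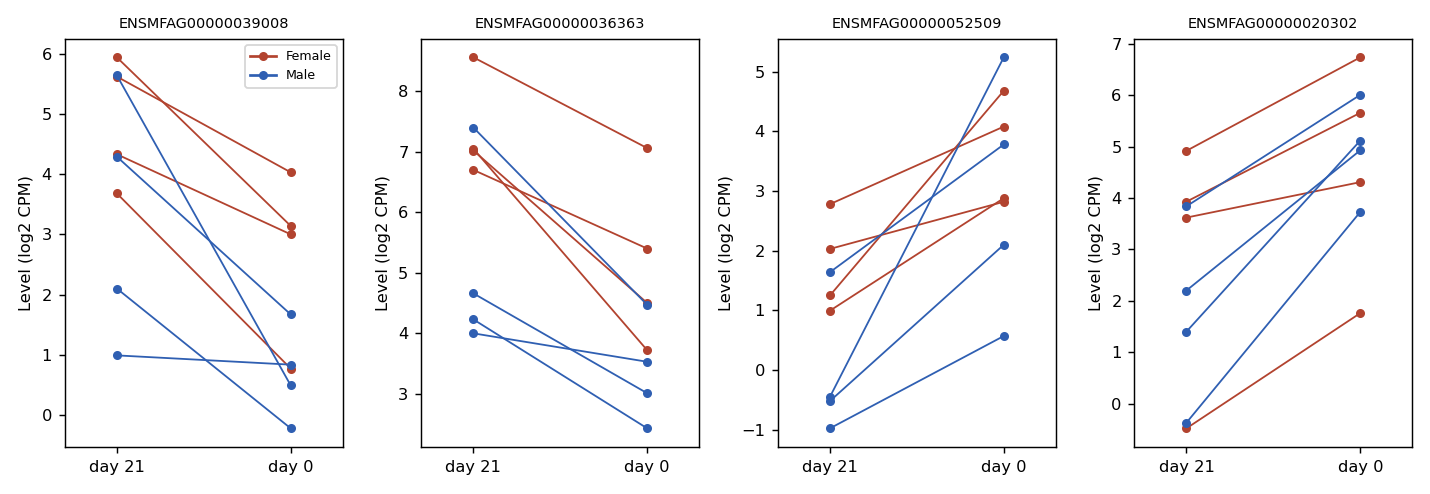
Level of the 4 example identifiers (log2 CPM, vertical axes, each with its own range) on day 21 and on day 0. Each line joins the 2 libraries of 1 animal, red for females and blue for males, and all 8 lines slope the same way in every panel although the levels of the days overlap.

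The 4 identifiers reached their day 21 levels along different courses. On days 0, 1, 3, 4, 7, 8, 10, 14, 17 and 21, the mean level of ENSMFAG00000036363 was 4.27, 4.82, 4.64, 4.75, 4.82, 5.24, 5.44, 6.19, 6 and 6.2 log2 CPM. ENSMFAG00000039008 stood at 1.71, 2.49, 2.38, 2.15, 1.83, 2.41, 2.39, 3.29, 3.31 and 4.07 log2 CPM on the same days, with a mean on day 7 close to that of day 0. ENSMFAG00000020302 stood at 4.78, 3.79, 2.7, 2.99, 1.55, 2.35, 0.87, 1.94, 2.33 and 2.38 log2 CPM, with its lowest mean on day 10. ENSMFAG00000052509 stood at 3.27, 2.23, 1.65, 3.16, 2.69, 5.92, 3.48, 4.83, 1.3 and 0.84 log2 CPM. The day 8 mean of ENSMFAG00000052509 rested on males 39102, 39103 and 39104, at 10.3, 8.99 and 11 log2 CPM, whereas the other 5 animals lay between 2.75 and 4.58. Its day 4 mean held male 39102 at 10.6 log2 CPM. On day 14 males 39104 and 39103 stood at 9.55 and 6.82 log2 CPM, and the other animals between 1.77 and 5.77. The log2 fold change of ENSMFAG00000052509 for day 21 against day 14 was -3.79 (SE 0.88, edgeR adjusted p = 0.0383). Every animal was lower on day 21, but the size of the change leaned on the high males. Most day 14 libraries carry another run tag, and this call was not followed through the alternatives. The other 3 identifiers did not pass the test between day 21 and day 14 (edgeR adjusted p from 0.515 to 0.988).

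The mean levels of the called sets alternated between draws on days that had no part in choosing them. Steps between days 1 and 17 share no library with the comparison of day 21 with day 0. Genes called higher on day 21 changed by a mean log2 of 0.23 ± 0.18 (SD, n = 8 animals) between day 1 and day 3, by -0.23 ± 0.28 between days 3 and 4, by 0.41 ± 0.36 between days 4 and 7, by -0.43 ± 0.31 between days 7 and 8, and by 0.43 ± 0.28 between days 8 and 10. Relative to the draw before, they thus stood lower on days 4 and 8, in 8 of 8 animals each time, and higher on days 3, 7 and 10, in 7, 7 and 8 of 8 animals. The mean over all genes lay between -0.04 and 0.07 in these steps.

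Genes called lower on day 21 had a mean of the opposite sign in every one of these steps. Their mean log2 change was -0.24 ± 0.22 (SD, n = 8) between days 1 and 3, 0.26 ± 0.42 between days 3 and 4, -0.41 ± 0.50 between days 4 and 7, 0.59 ± 0.53 between days 7 and 8, and -0.50 ± 0.37 between days 8 and 10. On day 8 they stood higher than on day 7 in 8 of 8 animals, and 91% of the genes had a positive mean change, against 44.7% of all genes tested. Male 39102 weighed on the steps around day 4. Without this animal the step between days 3 and 4 averaged -0.14 for the higher set and 0.11 for the lower set, and the step between days 4 and 7 averaged 0.31 and -0.26. Between days 7 and 8, single animals ran from -0.999 to -0.145 in the higher set and from 0.142 to 1.6 in the lower set. Without male 39104 that step averaged -0.35 and 0.45. The step between days 8 and 10 averaged 0.36 and -0.40 without male 39102. Scaling by library totals kept the direction of all these steps but not their size. The higher set then changed by -0.40, 0.60, -0.79 and 0.70 in the 4 steps from day 3 to day 10, and the lower set by 0.09, -0.21, 0.23 and -0.23. The day 10 libraries of males 39102, 39103 and 39104 carry another run tag, and the step between days 8 and 10 had the same direction in these animals as in the other 5. The means between days 10 and 14 had no common direction, at -0.03 ± 0.24 for the higher set (4 of 8 animals up) and 0.14 ± 0.31 for the lower set (5 of 8 animals up). With library totals the values were -0.25 and -0.08. The run tag changed between days 10 and 14 in every animal, so run and day cannot be told apart in this step.

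**Figure D2:**
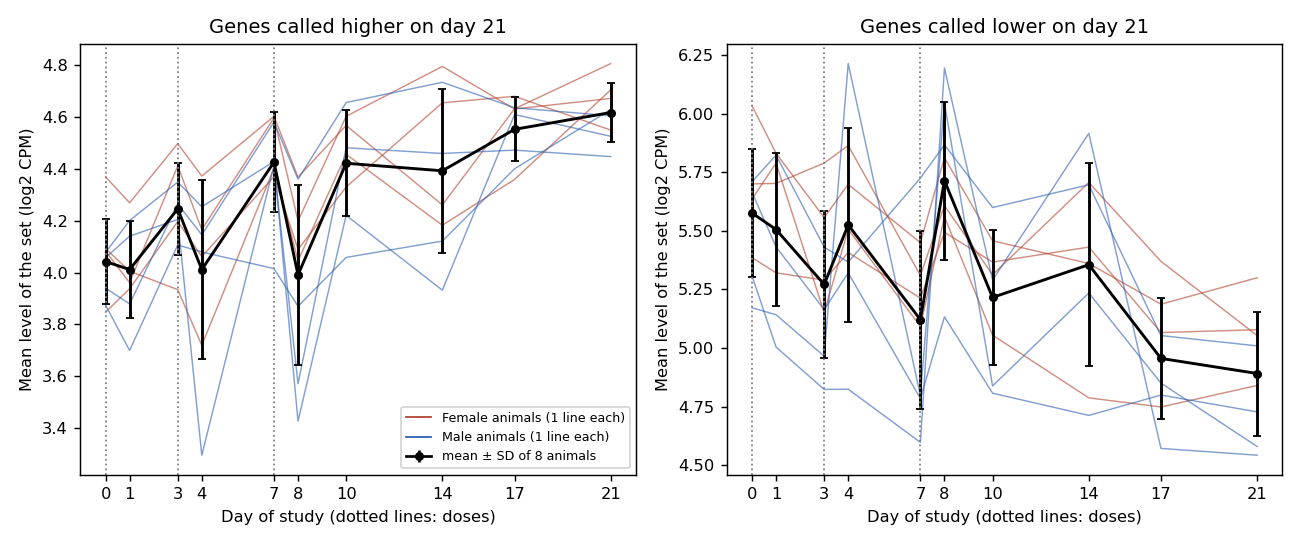
Mean level over the 2011 genes called higher (left) and the 2434 genes called lower (right) on day 21, in log2 CPM, against the day of study. Thin lines are the 8 animals, red for females and blue for males, black points and bars are their mean ± SD, and dotted lines mark the 3 doses. The higher set dips on days 4 and 8 while the lower set peaks on those days, and both end away from their day 0 levels, whose libraries helped to choose the sets.

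The genes with the largest decreases followed another course. The 105 genes called lower by more than 4-fold averaged -2.13 ± 0.26 log2 CPM (SD, n = 8) at day 21, against 0.27 ± 0.83 at day 0. In between, on days 1, 3, 4, 7, 8, 10, 14 and 17, their mean level was 0.01, -0.63, -0.85, -1.36, -1.14, -1.75, -1.68 and -2.03 log2 CPM. The decline was spread over the whole period, and the mean on days 8 and 14 was slightly above the draw before without reaching the mean of day 4. Male 39102 departed from this course, with the lowest level on day 0, at -1.06 log2 CPM, and a level of -0.04 on day 4. Between day 1 and day 17, which did not choose them, these genes changed by a mean log2 of -2.04 ± 0.29, lower in 8 of 8 animals, and 101 of the 105 had a negative mean change, or 96.2%, against 46.3% of all genes. They were scarce transcripts, with 97 of 105 under 2 log2 CPM on the other days, where the prior count of 2 holds low levels up. Such levels were common, since among all genes tested the class next to the least abundant ended at 2.37 log2 CPM. With a prior count of 0.5 the change between day 1 and day 17 was -2.71 ± 0.36. Their mean log2 change between day 21 and day 0 lay between -2.50 and -3.35 in females and between -1.31 and -2.83 in males. Of the 105 genes, 85 had the more negative mean change in females, and the medians were -2.82 in females and -1.83 in males. On day 0 the set stood between 0.466 and 1.54 log2 CPM in females and between -1.06 and 0.319 in males. On day 21 it stood between -2.07 and -1.81 in females and between -2.51 and -1.99 in males. The part of the higher day 0 levels of females was not tested. Fitted within each sex, 94 genes were called lower by more than 4-fold in females and 111 in males. No gene passed edgeR's test of a difference between the sexes, given further on.

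The 23 genes called higher by more than 4-fold averaged 0.38 ± 0.54 log2 CPM at day 21, against -1.59 ± 0.77 at day 0. Their mean level was -1.35, -0.39, -0.84, -0.12, 0.27 and 0.17 log2 CPM on days 4, 7, 8, 10, 14 and 17. Between day 1 and day 17 they changed by a mean log2 of 1.49 ± 0.70, higher in 8 of 8 animals. Of the 23, 20 were under 2 log2 CPM on the other days. Female 39097 already stood at 0.17 log2 CPM on day 0, above the other 7 animals, and had the smallest change, at 0.76.

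Some scarce transcripts were not detected on day 21 at this depth. Among all 38550 genes of the table, 40 had a count in at least 6 of 8 libraries of day 0 and 0 counts in 8 of 8 libraries of day 21, whereas 3 genes showed the opposite pattern. Only 3 of the 40 passed the filter on low counts, which used all 80 libraries, those of day 0 included. These 3 were called lower, as the choice of the genes favours. Summed over the 40 genes, the level was 0 CPM at day 21, against 6.28 ± 3.62 CPM (SD, n = 8) at day 0. Their summed means were 4.73, 2.78, 1.8, 1.21, 0.87, 0.538, 0.332 and 0.429 CPM on days 1, 3, 4, 7, 8, 10, 14 and 17. The value of 0 follows from the choice of the genes, which also favours a high level on day 0, whereas days 1 to 17 had no part in it. Counts of single genes were small, with a median sum of 21.5 over the 8 libraries of day 0.

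**Figure D3:**
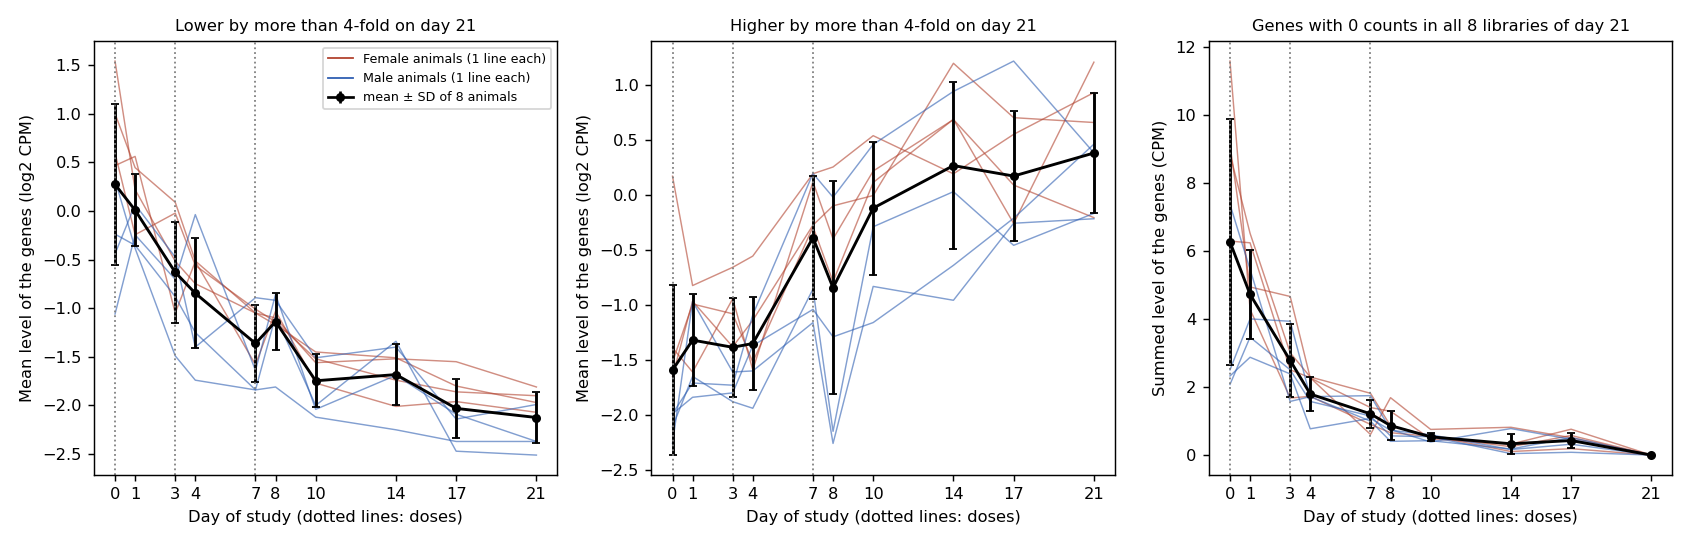
Course of the 105 genes lower by more than 4-fold on day 21 (left, mean log2 CPM), of the 23 genes higher by more than 4-fold (middle, mean log2 CPM) and of the 40 genes without a count on day 21 (right, summed CPM), against the day of study. Thin lines are the 8 animals, black points and bars their mean ± SD, and dotted lines the 3 doses. The means of the left and right panels decline over the period and reach their day 0 level on no later day, while male 39102 started lowest in the left panel. The libraries of day 0 and day 21 chose the genes of all panels, which favours a high day 0 level in the left and right panels.

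Day 21 was then set against the days before it, in which comparisons day 0 plays no part. Day 17 was the closest to it. For day 21 against day 17, edgeR called 0 genes (0% of those tested). An unadjusted p under 0.05 was found for 684 of the 16054 genes, a smaller share than the 0.05 that chance gives on average. A count of 0 does not show that the days were alike. Limma voom also called 0 genes, and DESeq2 called 11. Without male 39104 edgeR called 3. The distance of day 21 from day 17 of the same animal, as the root mean square (RMS) of the log2 differences over all genes, was 0.66 ± 0.07 (SD, n = 8), the smallest mean of any day. Day 17 was the nearest day in 6 of 8 animals and day 7 in the other 2.

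Distances from the other days did not grow steadily with time. The mean distance of day 21 from days 0, 1, 3, 4, 7, 8, 10 and 14 was 0.81, 0.86, 0.79, 0.95, 0.74, 1.05, 0.82 and 1.02, with SDs between 0.05 for day 0 and 0.32 for day 4. Days 8 and 14 were farthest on average, and their ranges overlapped those of other days. The day 8 mean held males 39102 and 39104, at 1.44 and 1.54. Without male 39104 the mean distance was 0.989 from day 4, 0.975 from day 8 and 0.969 from day 14, so this order hung on 1 animal. Most day 14 libraries carry another run tag, whose part in the distance was not tested. Day 4 came next through male 39102, at 1.69. Without this animal the mean distance was 0.846 from day 4 and 0.874 from day 1. The distance from day 0 varied the least between animals, from 0.72 to 0.87, with a median of 0.811. Distances between different animals within a day had a higher median, 0.958 on day 21 and 0.928 on day 0, but began at 0.831 and 0.846 on those days, so that the ranges overlapped. These distances contain counting noise, and libraries differed in depth.

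**Figure D4:**
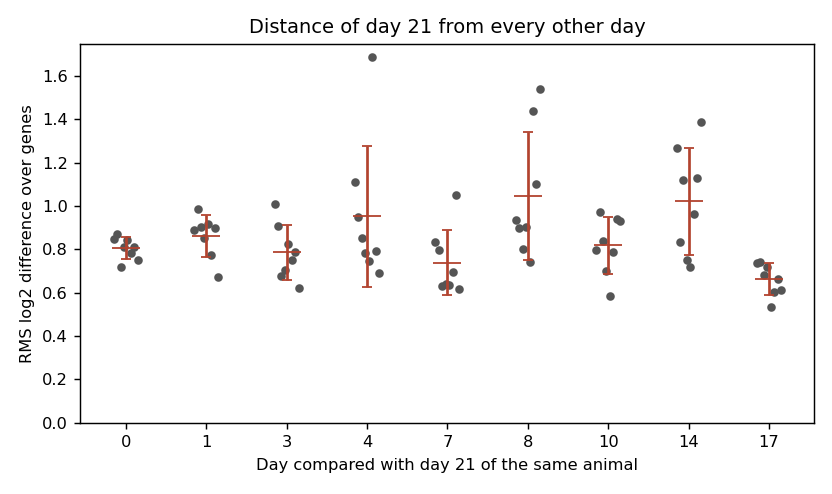
Distance of day 21 from every other day, as the RMS of log2 differences over the 16054 genes (vertical axis, starting at 0), by day compared. Grey points are the 8 animals and red marks the mean ± SD. Day 17 lies lowest on average and days 8 and 14 highest, while the high point on day 4 is male 39102 at 1.69. The highest point on day 8 is male 39104 at 1.54.

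Day 21 still differed from day 14, a week earlier. Of the genes tested, 648 (4.04%) were higher and 743 (4.63%) lower on day 21, or 8.66% together. This count hung on single animals. It was 0 without male 39103, 1 without female 39090, 2 without male 39102, 8 without female 39097, 28 without male 39104 and 2762 without female 39095. Most day 14 libraries carry another run tag than the rest. Among the 3 animals with both libraries under the shared tag, all male, 1749 genes were called, 394 higher and 1355 lower. Scaling by library totals moved the median log2 fold change of all genes to 0.41 from 0.05 and gave 3707 higher and 546 lower. Upper-quartile factors gave 998 higher and 745 lower.

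Few genes were called between day 21 and day 7, the day of the third dose. There were 64 higher (0.399%) and 83 lower (0.517%), or 0.916% of those tested. The count was 0 without female 39090, 11 without male 39102, 20 without female 39097, 24 without female 39095, 80 without male 39100 and 295 without male 39103. The day 7 library of 39095 has its own library tag, so the value without that animal is also the one within the shared tag. A count this low does not show that the days were alike, since 2914 genes had an unadjusted p under 0.05 and DESeq2 called 963. The genes called higher on day 21 against day 0 had a median log2 fold change of 0.13 against day 7, and those called lower one of -0.17, where the median of all genes was -0.01. Both comparisons use the day 21 libraries.

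The step from day 14 to day 17 shares no library with the comparison of day 21 with day 0, so its calls could be set beside them. It called 1481 genes higher and 1735 lower, 9.23% and 10.8% of those tested and 20% together. Of the 2434 genes lower on day 21, 613 were also lower on day 17 than on day 14, which is 25.2% of the first list and 35.3% of the second. Opposite calls were made for 62 genes, 2.55% and 4.19% of their lists. Of the 2011 genes higher on day 21, 278 were also higher on day 17 than on day 14 (13.8% and 18.8% of the lists), and 168 were lower (8.35% and 9.68%). The mean log2 change from day 14 to day 17 was -0.40 ± 0.44 for the lower set (7 of 8 animals down) and 0.16 ± 0.28 for the higher set (6 of 8 up), or -0.04 and 0.52 with library totals. The calls of this step were 0 without male 39102 or without male 39103, 115 without female 39090, 883 without female 39097, and 1001 among the 3 males within the shared run tag. The split was 5247 higher and 699 lower when scaled by library totals, and 1934 and 1484 with upper-quartile factors.

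Females and males could be compared because each sex has 4 animals. In the 4 females 872 genes (5.43%) were higher and 933 (5.81%) lower on day 21 than on day 0, 11.2% of those tested together. In the 4 males 703 (4.38%) were higher and 1537 (9.57%) lower, 14% together. The male split was 1638 higher and 1037 lower when scaled by library totals, and 1087 and 1251 with upper-quartile factors. For the interaction of sex and day, edgeR called 0 genes (0%) although 975 had an unadjusted p under 0.05, limma voom called 0 and DESeq2 called 26. Without the filter on low counts edgeR called 302 of 25716 genes. The counts within a sex hung on single animals, at 380 without female 39098, 569 without female 39090, 824 without female 39095, 1090 without male 39103 and 1310 without male 39100.

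Genes called in one sex moved the same way in the other, whose libraries had no part in the call. Of the 872 genes higher in females, 861 were higher in males (98.7%), and 369 were also called there. Of the 933 lower in females, 909 were lower in males (97.4%), and 635 were called there. Over all genes tested, 4.38% were called higher and 9.57% lower in males. The share of all genes that moved the same way in both sexes was not counted. Of the 703 genes higher in males, 663 were higher in females (94.3%), and of the 1537 lower in males, 1518 were lower in females (98.8%). One gene was called in opposite directions. Their medians in the other sex were a log2 fold change of 0.48 and -0.73 in males for the genes chosen in females, and 0.53 and -0.47 in females for the genes chosen in males. Across the 16054 genes, the mean change of the females correlated with that of the males at r = 0.58, a description over genes, which are not independent replicates.

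Single animals differed in how far they followed the other sex. For the genes called lower in the 4 males, the mean log2 change was -0.16 in female 39097, with 59.2% of the genes lower, against -0.62 to -0.82 and 95.3% to 98.4% in the other 3 females. For the genes called higher in males the same female was at 0.49 with 92.7% higher, and the other 3 females were between 0.54 and 0.81 with 80.2% to 96.4% higher, so that its share lay within theirs. For the genes called higher in females, male 39102 was at 0.37 and male 39104 at 0.38, against 0.71 in male 39100 and 0.83 in male 39103. The change of an animal correlated with the mean change of the other 7 at r = 0.30 in female 39097, 0.37 in male 39102 and 0.47 to 0.55 in the other 6 (16054 genes, which share each library's depth and scaling).

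**Figure D5:**
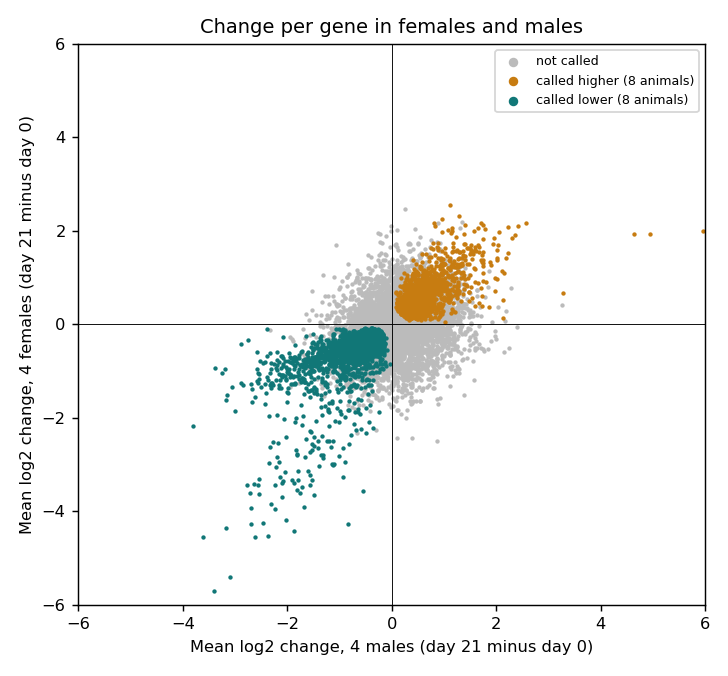
Mean log2 change between day 21 and day 0 per gene in the 4 females (vertical axis) against the 4 males (horizontal axis). Orange points are genes called higher and green points genes called lower in all 8 animals together, grey points genes not called. Called genes lie in the quadrants where both sexes moved alike, as their choice favours. Of the 105 genes lower by more than 4-fold, 85 lie at a more negative value in females, whose mean day 0 levels of this set were higher.

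Animals differed among themselves to a similar extent on both days. The spread between animals, as the median over genes of the SD of log2 CPM over 8 animals, was 0.393 on day 21, against 0.397 on day 0, and 47.4% of the genes had a smaller SD on day 21. It was wider on days 4, 8 and 14, at 0.527, 0.506 and 0.585, and narrower on day 17, at 0.368. The day 14 libraries carry 2 run tags, and their part in the spread of that day was not tested. Among the genes called higher on day 21 the median SD was 0.3 on day 21, against 0.337 on day 0, and among those called lower it was 0.379 against 0.384.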

How the data were processed

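The authors deposited gene counts, whole numbers of reads per gene without normalization, in 2 tables of the same 80 libraries (38550 and 35432 genes). Per the labels' protocols, RNA came from whole blood with the RNAdvance Blood Kit, and mRNA libraries were made with KAPA HyperPrep reagents. The aligner, the counting program, its handling of strand, and the genome build were not given in the sources used here. Of both tables, the larger was used, with the second as an alternative. Its 16 libraries held 17.9 M to 30.3 M counts.

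Genes were kept with filterByExpr grouped by day over all 80 libraries (16054 genes, 41.6%), scaled with TMM over all 80 libraries, and fitted on the libraries compared by quasi-likelihood (edgeR 4.0.16, glmQLFit and glmQLFTest, R 4.3.3) with animal as a block. P-values were adjusted by Benjamini-Hochberg over all genes kept. An SE is the log2 fold change divided by the square root of F. Levels had a prior count of 2. Alternatives used DESeq2 1.42.0, limma 3.58.1, other scalings and filters, and omission of each animal. The fits were also run on simulated counts with far fewer changed genes than were called here, and the outcome is not reported here.

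The pairing comes from the animal numbers in the labels. Between day 21 and day 0, libraries' deviations from their day mean correlated at r = 0.432 to 0.605 within animals. No 2 libraries of a day agreed within counting noise (smallest chi-square per degree of freedom 42 on day 21 and 29.9 on day 0).

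Because names were lacking, the named identifiers are the 2 with the largest and the 2 with the smallest log2 fold change among called genes with a mean of at least 2 log2 CPM and 1 direction in 8 of 8 animals, and the lists of marker and pathway genes were not used. The comparison, the lists and the rules were chosen with earlier results of these data known. The sets of more than 4-fold changes, the genes without a count on day 21 and all courses over days were chosen after the values were seen.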

Additional observations from a re-analysis of the deposited data

Results flagged for a closer look

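In 3 cases a value lay far from the other 7 of their group, where 40 groups of 8 values were examined and chance flags about 1 in 20 of them. The day 0 library of female 39090 held 30.3 M counts and the next largest day 0 library 24.9 M. Between day 3 and day 4, male 39102 changed by a mean log2 of -0.907 over the genes called higher on day 21 (next value -0.245) and by 1.25 over the genes called lower (next value 0.356). Both belong to the same pair of libraries, and the means without this animal stand in the report.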

How the results depend on the processing

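The direction of the 4 named identifiers was the same under the 7 alternatives run for them, which do not include the second table. No call of theirs was lost when an animal was left out, but their choice already required 1 direction in 8 of 8 animals. The calls of ENSMFAG00000036363 and ENSMFAG00000020302 were lost without the animal block, and that of ENSMFAG00000052509 in 1 fit over all 80 libraries. For day 21 against day 0, the number of changed genes was 3381 to 4517 when each animal was left out. It was 2896 in 1 fit over all 80 libraries, with 1553 lower. Without the pairing, in a fit with no animal block, 1939 genes were called, 791 higher and 1148 lower. That fit without the block also called 2 genes for day 21 against day 7, 1889 for day 17 against day 14, 50 in females and 3 in males. DESeq2 called 11 genes for day 21 against day 17, 4072 against day 14, 963 against day 7, 4916 for day 17 against day 14 and 26 for the interaction with sex. Limma voom called 463 against day 7. Without the filter on low counts there were 607 against day 7, 302 for the interaction and 2851 in females. With library totals, 4253 genes differed between day 21 and day 14 and 5946 between day 17 and day 14, and the fit over all libraries gave 5596 and 5482. Within the shared run and library tag, day 21 against day 7 gave 24 and day 17 against day 14 gave 1001. Leaving out 1 animal at a time gave 0 to 3 genes for day 21 against day 17, 0 to 2762 against day 14, 0 to 295 against day 7, 0 to 3611 for day 17 against day 14, 380 to 2659 in females and 1090 to 2535 in males. The difference in the share of the 10 most abundant genes was 0.985 to 1.36 percentage points, and that of the 100 most abundant 1.06 to 1.6. With 7 animals the smallest exact permutation p is 0.0156, and the adjusted p of the first share was 0.0391 without male 39100 and 0.0781 without any other animal. The causes of these shifts were not tested. Depth limits the scarce genes, whose fold changes carry the largest standard errors.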
